A study of Homo sapiens with 18 samples.

Results

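A set of 10 cytokine genes of epithelial cells was followed through the knockout of CBFB and of RUNX1: IL6, IL11, LIF, CSF1, CSF2, CSF3, IL15, IL24, IL32 and TSLP. They were chosen by symbol and joined between tables by Entrez ID, out of 19401 genes listed in at least 1 table. RNA was sequenced from MCF10A, a non-tumorigenic, immortalized line of human mammary epithelium, grown in medium with horse serum, insulin, EGF, hydrocortisone and cholera toxin and with no further treatment in any group. The 18 samples formed 5 groups: a CBFB KO (3 samples) with its own WT (3), and RUNX1 KO1 (4) and RUNX1 KO2 (4) with 1 shared WT (4). Knockouts were made with CRISPR-Cas9 and grown from single cells. The labels number 2 RUNX1 knockouts, taken here as 2 clones, and give no clone number for CBFB KO. In each comparison the effect of the deletion and of the clone cannot be told apart. The labels do not say whether samples of a group were separate cultures, and p-values then measure only the spread between these samples.

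These cytokines are secreted proteins through which epithelia signal to leukocytes, stroma and themselves. IL6, IL11 and LIF act through receptors that share the signaling chain gp130 (IL6ST) and activate JAK kinases and STAT3. CSF1, CSF2 and CSF3 are the growth factors of macrophages, of granulocytes and macrophages together, and of neutrophils. IL15 sustains natural killer and memory T cells, IL24 belongs to the IL10 family, TSLP primes dendritic cells at epithelial barriers, and IL32 is a pro-inflammatory cytokine. CBFB is the partner that the DNA-binding RUNX proteins need for stable binding, and the CSF2 promoter is a classical RUNX1 target in T cells. The comparisons ask how far loss of either subunit changed these transcripts in mammary epithelial cells.

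The values were taken from the 3 deposited knockout-versus-WT tables, which hold 1 mean normalized count, 1 log2 fold change and its standard error (SE) per gene and no value for a single library. The means summed to between 16467400 and 20214423 normalized counts per library. For genes whose mean was 100 or more, SEs of the fold change (log2) had a median of 0.12 for CBFB KO, 0.10 for KO1 and 0.21 for KO2, so KO2 was measured with the least precision. CBFB mRNA fell in CBFB KO (log2 fold change -4.88, adjusted p = 1.39e-252). RUNX1 mRNA was higher in the libraries labelled RUNX1 KO1 (log2 fold change 0.54) and RUNX1 KO2 (0.46), so mRNA does not check these labels, and directions below are given for libraries carrying them. By immunoblot, the study reports deletion of RUNX1 in MCF10A cells, and a loss of RUNX1 protein in CBFB knockout cells as well. Protein was not measured in these libraries. Epithelial markers were abundant, with E-cadherin (CDH1) at means from 3351 to 3941. The leukocyte antigen PTPRC was at a mean of 0.463 in the CBFB table and not listed in either RUNX1 table, and CD3E stayed between 0.114 and 0.301. CD14, CD68 and CSF1R were the leukocyte markers with means over 100, 3 of 7 in each table. Of the fibroblast markers COL3A1 was not listed in any table, while COL1A1 was higher in every knockout (log2 fold changes from 1.36 to 1.75), so the summed fibroblast list was between 147 and 169 normalized counts in the WT groups and between 347 and 477 in the knockouts. The part of this in the results below was not tested. The 3 endothelial markers each stayed under a mean of 1. In bulk RNA, fewer cells of a type and less RNA per cell cannot be told apart.

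All 10 members were listed for RUNX1 KO1. IL24 and IL32 were not listed for CBFB KO, and IL32 was not listed for RUNX1 KO2, which left 8 members for CBFB KO and 9 for KO2. Every listed member had an adjusted p-value. Of the 10699 genes whose mean in the KO1 table was 100 or more, 354 (3.31%) were missing from the KO2 table, although both tables use the same WT libraries. IL32 was one of them.

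Levels in WT and knockout were computed from each table's mean and fold change, which is possible because group sizes were equal within a table. Fold changes in these tables are shrunk toward 0 for genes with few reads, so for the low members the computed groups lie closer together than the reads did. Per kilobase of the longest annotated transcript, CSF3 was the highest member in the RUNX1 WT libraries at 292 normalized counts. IL32 followed with 141, LIF with 33.3 and CSF1 with 30.9. IL24 (12.6), IL11 (8.36) and IL15 (6.23) were lower, and TSLP (3.70), CSF2 (2.70) and IL6 (1.09) were lowest. In the WT of the CBFB experiment CSF3 was again highest (448), followed by CSF1 (38.9) and LIF (30.8), and IL6 (2.67) was again lowest. Without values per library, neighbors in this order could not be compared with their spread. Summed over all libraries of a table, IL6 amounted to between 12.3 and 27.5 normalized counts and CSF2 to between 14.5 and 26.2, and TSLP to at most 75.6, so these members are resolved by few reads.

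**Figure D1:**
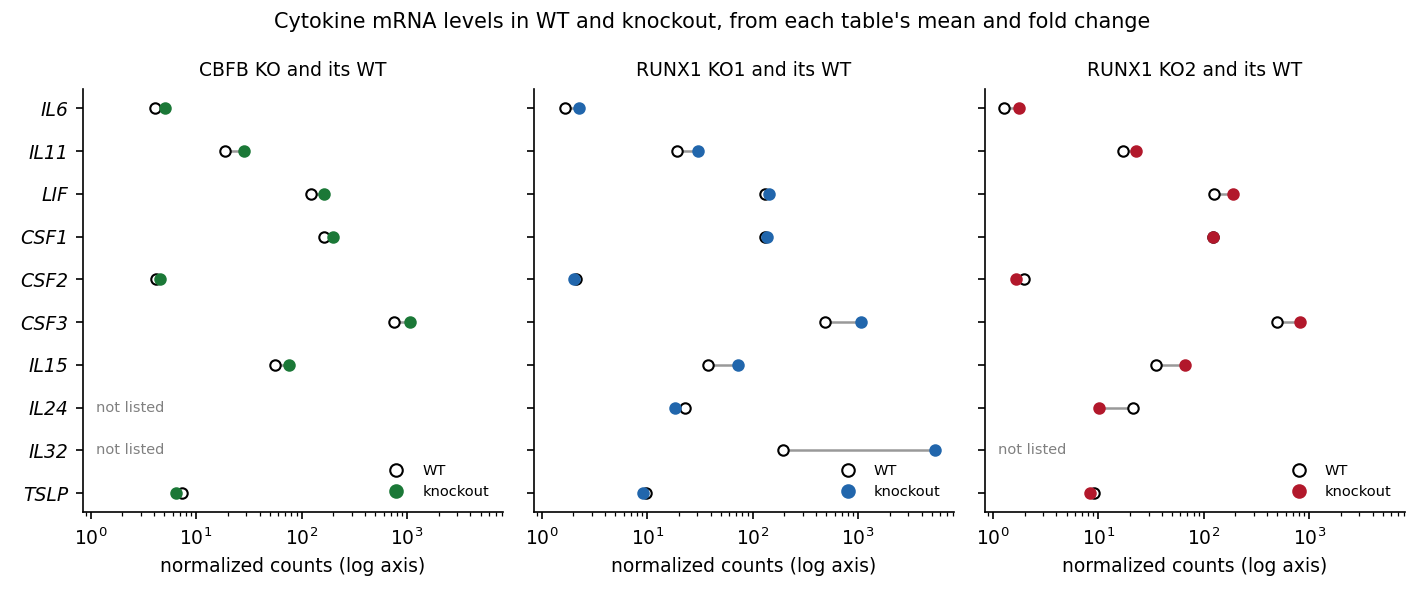
Normalized counts of each cytokine mRNA (x axis, log scale) in WT (open circles) and knockout (filled circles), 1 panel per table, computed from the table's mean and fold change. CSF3 was between 489 and 1068 in every group shown, IL6 and CSF2 reached at most 5.10, and IL32 went from 195 in WT to 5316 in RUNX1 KO1.

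A gene was called changed when its adjusted p-value was under 0.05 and its fold change at least 2. By this rule 0 of 8 members were called for CBFB KO, 2 of 10 in RUNX1 KO1 (IL32 and CSF3, both higher) and 1 of 9 in RUNX1 KO2 (IL24, lower). Over all genes tested, the DESeq2 tables called 2.98% for CBFB KO, 4.93% for KO1 and 5.48% for KO2. On the adjusted p-value alone, the members were 0 of 8, 4 of 10 (IL32, CSF3, IL15 and IL11) and 3 of 9 (LIF, IL15 and IL24), against 19.7%, 39.5% and 14.8% of all genes. At an unadjusted p under 0.05 the CBFB KO table held 1 member, IL11. A single gene among at most 10 members weighs more than any of the 2-fold backgrounds, so these counts are given as a description. The median log2 fold change of the tested members was 0.38 (CBFB KO), 0.27 (KO1) and 0.40 (KO2), against medians of -0.00867, -0.00169 and 0.0205 over all genes tested. Fold changes were above 0 for 7 of 8, 7 of 10 and 6 of 9 members. No p-value is attached to these medians and counts, since the members were chosen with earlier results known.

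**Figure D2:**
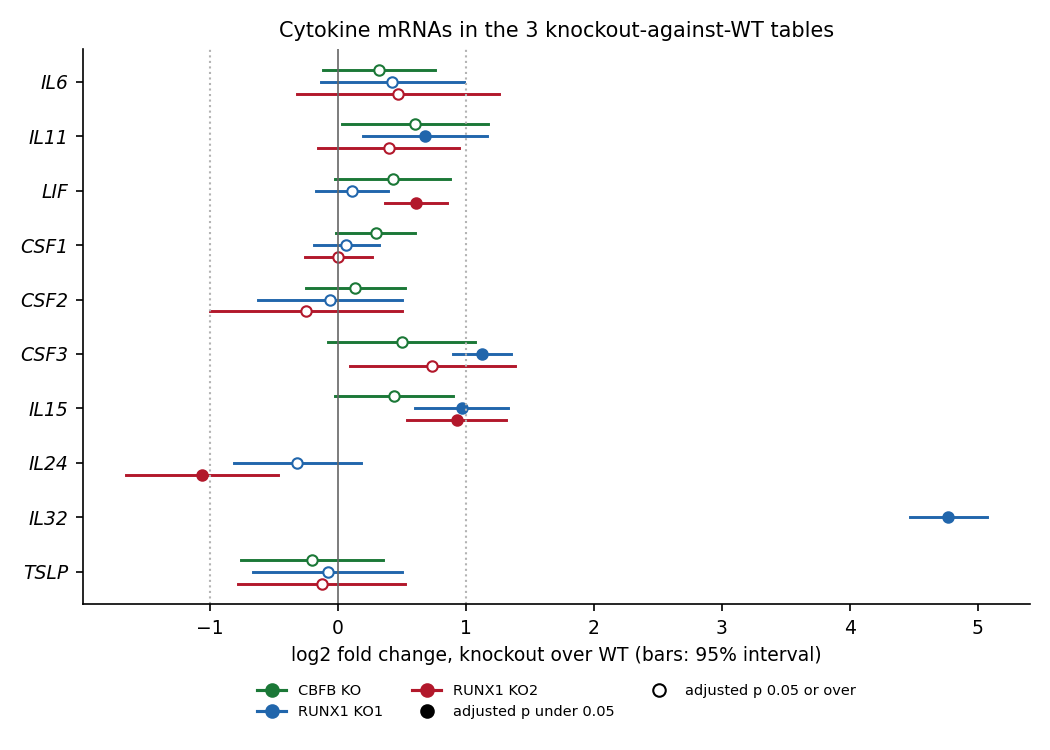
Log2 fold change of each cytokine mRNA (x axis) in CBFB KO (green), RUNX1 KO1 (blue) and RUNX1 KO2 (red), with 95% intervals from the deposited SE, filled where the adjusted p-value is under 0.05. Dotted lines mark a 2-fold change. IL32 in KO1 lies at 4.77, apart from the other members, whose values run from -1.06 to 1.13.

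IL32 (Entrez ID 9235) had the largest change of the 10. Its level was 195 normalized counts in RUNX1 WT and 5316 in KO1, a 27.3-fold difference with a 95% interval from 22.2 to 33.6. The log2 fold change was 4.77 (SE 0.15, adjusted p = 1.67e-208), and 3 of the 16394 genes tested in KO1 had a larger rise. The same WT libraries enter the KO2 comparison, where IL32 has no entry, and the CBFB table has none either, so the rise was seen in 1 clone and is not analysed here in the others. RefSeq (GRCh38.p14) gives IL32 a pair of start sites on chromosome 16. The 250 bases before the first, chr16:3065153-3065402 on the plus strand, hold the cyclic AMP response element TGACGTCA, shown in capitals because this is the member that moved most. These 8 letters stand in 1.65% of 35116 RefSeq promoter windows of the same length.

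IL32: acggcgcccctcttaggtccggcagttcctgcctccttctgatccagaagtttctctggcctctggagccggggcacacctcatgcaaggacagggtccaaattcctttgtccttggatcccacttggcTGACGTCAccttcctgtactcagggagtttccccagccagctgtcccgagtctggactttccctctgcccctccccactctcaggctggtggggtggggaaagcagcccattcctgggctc

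Of the colony-stimulating factors, CSF3 was abundant and rose in 1 clone, CSF1 was moderate and CSF2 scarce. CSF3 (Entrez ID 1440), which encodes G-CSF, rose in KO1 from 489 to 1068 normalized counts (log2 fold change 1.13, SE 0.12, adjusted p = 2.26e-20). In KO2 it was 491 in WT and 819 in the knockout, a log2 fold change of 0.74 with an SE of 0.33 that missed the adjusted threshold (adjusted p = 0.127). In CBFB KO it was 750 in WT and 1059 in the knockout (log2 fold change 0.50, SE 0.29, adjusted p = 0.243). All 3 estimates were above 0. The 95% intervals in KO2 (0.09 to 1.38) and CBFB KO (-0.07 to 1.07) both reach from near 0 to past the 2-fold line. CSF1 (Entrez ID 1435), the ligand of the CSF1 receptor, had a log2 fold change of 0.30 in CBFB KO (adjusted p = 0.186), while 0.07 (adjusted p = 0.728) was found for KO1 and 0.00 (adjusted p = 0.993) for KO2. Its 95% interval ran from -0.18 to 0.32 in KO1 and from -0.26 to 0.27 in KO2, so both intervals lie inside the 2-fold lines. After a correction of the fold changes for their trend with transcript length and GC, both log2 values were below 0 (-0.0486 and -0.17), again with no adjusted p under 0.05.

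CSF2 (Entrez ID 1437), which encodes GM-CSF, was close to the limit of detection. Its mean was 4.36 normalized counts in the CBFB table, 2.08 in KO1 and 1.82 in KO2. The log2 fold changes were 0.14 (adjusted p = 0.711), -0.06 (adjusted p = 0.894) and -0.25 (adjusted p = 0.793), with intervals from -0.25 to 0.52, -0.62 to 0.50 and -1.002 to 0.499. No change of CSF2 mRNA was detectable at this depth, and after correction for transcript length and GC the log2 fold change in KO1 became 0.26. Its promoter is printed because it is the only one among the members found in the RefSeq table that holds a RUNX core. The 250 bases before the start, chr5:132073539-132073788 on the plus strand of GRCh38.p14, have the RUNX letters TGTGGT from base -58 to base -53, and the STAT-type letters TTCNNNGAA from base -190, both in capitals.

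CSF2: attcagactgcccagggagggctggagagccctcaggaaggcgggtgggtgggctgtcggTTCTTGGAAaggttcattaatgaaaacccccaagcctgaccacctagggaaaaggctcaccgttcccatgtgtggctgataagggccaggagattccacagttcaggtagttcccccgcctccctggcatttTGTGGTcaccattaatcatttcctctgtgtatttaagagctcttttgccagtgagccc

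Promoter windows were found for 6 of the 10 members: IL6, IL11, CSF2, IL24, IL32 and TSLP, in 9 windows because IL32 and TSLP have several start sites. Those of LIF, CSF1, CSF3 and IL15 are not analysed here. Each 250-base window was searched on both strands for the RUNX letters TGTGGT or TGCGGT, the AP-1 letters TGANTCA, the cyclic AMP element TGACGTCA and the STAT letters TTCNNNGAA. Each motif was held by 1 of the 6 members, in 1 of the 9 windows. CSF2 held those for RUNX and STAT, and IL11 that for AP-1 (bases -96 to -90). IL32 held the cyclic AMP element before its first start site and not before its second. Over all windows the shares were 16.3% for RUNX, 6.57% for AP-1 and 6.57% for STAT letters. A match is a description of the letters and not a site of binding, and nothing follows from its absence in these short windows.

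Of the gp130 cytokines, IL11 and LIF each rose in a different RUNX1 clone. IL11 (Entrez ID 3589) was 19.1 normalized counts in WT and 30.5 in KO1 (log2 fold change 0.68, SE 0.25, adjusted p = 0.0184). Its log2 fold change was 0.60 in CBFB KO (unadjusted p = 0.0397, adjusted p = 0.139) and 0.40 in KO2 (adjusted p = 0.443). LIF (Entrez ID 3976), which supports stem cell self-renewal and wound responses, rose in KO2 from 125 to 190 normalized counts (log2 fold change 0.61, SE 0.12, adjusted p = 1.72e-05). In KO1 it was 132 in WT and 143 in the knockout (log2 fold change 0.11, SE 0.14, adjusted p = 0.582), and in CBFB KO 122 and 164 (log2 fold change 0.43, SE 0.23, adjusted p = 0.194). IL6 (Entrez ID 3569), the founding member of the family, had means of 4.59, 1.95 and 1.53 normalized counts in the CBFB, KO1 and KO2 tables. Its log2 fold changes of 0.33, 0.42 and 0.47 did not pass the adjusted threshold (adjusted p = 0.338, 0.243 and 0.555), and the interval in KO2 ran from -0.32 to 1.26.

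IL15 (Entrez ID 3600) was the member that passed the adjusted threshold in both RUNX1 clones. It was 37.6 normalized counts in WT and 73.4 in KO1, a 1.96-fold rise (95% interval 1.52 to 2.52, adjusted p = 1.74e-06), just short of 2-fold. In KO2 it was 35.1 and 66.8, a 1.90-fold rise (95% interval 1.45 to 2.49, adjusted p = 5.43e-05), which became a log2 fold change of 1.04, past 2-fold, after correction for transcript length and GC. The same correction lowered the log2 fold change in KO1 from 0.97 to 0.87. Both clones were set against the same WT libraries, so these rises are not independent of each other. In CBFB KO IL15 was 56.6 in WT and 76.6 in the knockout (1.35-fold, 95% interval 0.984 to 1.86, adjusted p = 0.191).

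IL24 (Entrez ID 11009) fell in KO2 from 21.4 to 10.2 normalized counts (log2 fold change -1.06, SE 0.30, adjusted p = 0.00484). It was the only member called lower, and among the 15636 genes tested in KO2 it stood at place 223 from the lowest fold change. In KO1 it was 22.9 in WT and 18.4 in the knockout (log2 fold change -0.32, SE 0.25, adjusted p = 0.346). TSLP (Entrez ID 85480) stayed between 6.42 and 9.71 normalized counts in every group. Its log2 fold change was -0.20, -0.08 and -0.13 for CBFB KO, KO1 and KO2 (adjusted p = 0.696, 0.867 and 0.894), and the 95% intervals together ran from -0.78 to 0.53. The sign in KO1 turned (0.00257) after correction for transcript length and GC.

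Whether the knockouts differed from each other was tested on the difference of their log2 fold changes. Between CBFB KO and RUNX1 KO1, which share no library, 0 of 8 members differed at an adjusted p under 0.05, against 9.84% of all genes tested in both. At an unadjusted p under 0.05 there was 1, CSF3, with a difference of -0.63 (95% interval -1.25 to -0.01, adjusted p = 0.201). Between CBFB KO and KO2 0 of 8 members differed, with 0 at an unadjusted p under 0.05 and a background of 2.9%. The intervals were wide. For IL15 the difference from CBFB KO was -0.53 (-1.12 to 0.06) in KO1 and -0.49 (-1.09 to 0.11) in KO2, and both intervals include 0 as well as values beyond -1. The smallest adjusted p-values were 0.201 and 0.738. Between KO1 and KO2, where the shared WT makes the test conservative, 0 of 9 members differed, against 0.141% of all genes. LIF alone had an unadjusted p under 0.05, with a difference of -0.50 (95% interval -0.87 to -0.13, unadjusted p = 0.00787, adjusted p = 0.912). The rise of LIF in KO2 and of IL11 in KO1 was therefore not shown to be particular to the clone. For IL24 the difference of KO1 from KO2 was 0.75 (-0.03 to 1.52, adjusted p = 0.912).

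**Figure D3:**
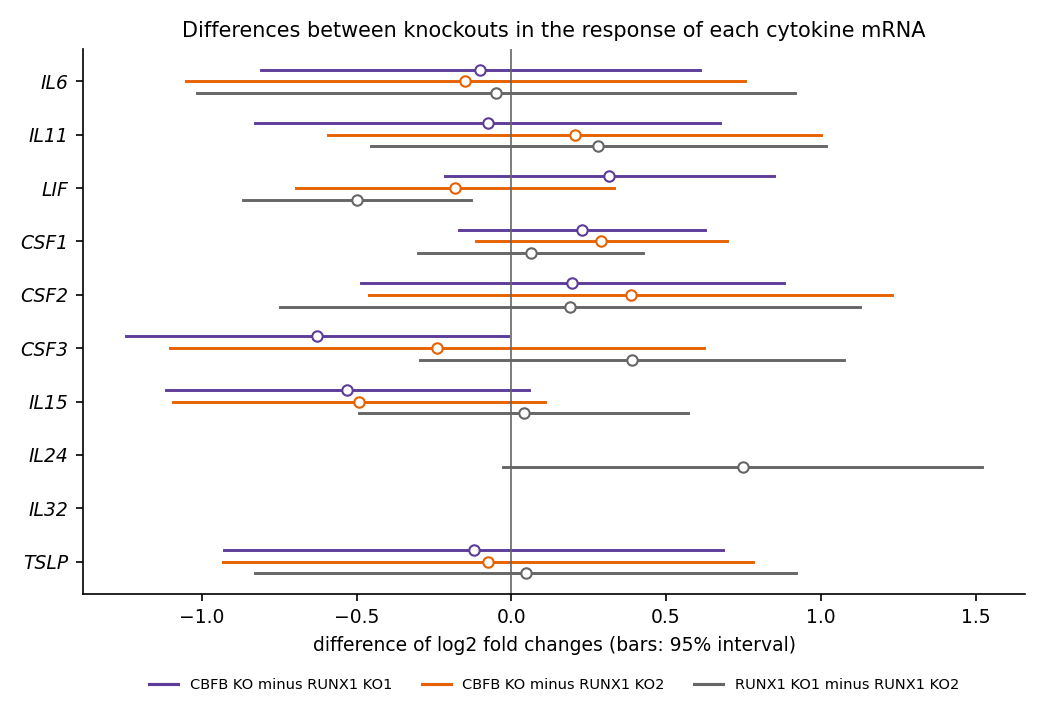
Differences between knockouts in the log2 fold change of each cytokine mRNA (x axis, first-named minus second-named), with 95% intervals. All circles are open because no adjusted p-value was under 0.05, IL24 has only the comparison of the RUNX1 clones, and IL32 has none.

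Some receptors of these cytokines differed between the knockouts. By the same test, 4 of 12 receptor genes differed between CBFB KO and KO1, 3 of 12 between CBFB KO and KO2, and 0 of 13 between KO1 and KO2 (0 at an unadjusted p under 0.05), where the shares of all genes were 9.84%, 2.9% and 0.141%. The list of 17 receptor genes gave 4 with an adjusted p under 0.05 of 12 tested for CBFB KO, 5 of 14 for KO1 and 3 of 13 for KO2. All were higher, and the shares of all genes tested were 19.7%, 39.5% and 14.8%. By the 2-fold rule 0, 2 and 2 receptor genes were called, beside 2.98%, 4.93% and 5.48% of all genes. Their median log2 fold changes were 0.29, 0.10 and 0.11. CSF1R, the CSF1 receptor and a known RUNX1 target in myeloid cells, rose in KO1 from 130 to 278 normalized counts (log2 fold change 1.10, SE 0.14) and in KO2 from 123 to 273 (1.15, SE 0.20). In CBFB KO it was 109 in WT and 108 in the knockout (log2 fold change -0.01, SE 0.21). The difference of CBFB KO from KO1 was -1.11 (95% interval -1.60 to -0.61, adjusted p = 6.56e-04), and that from KO2 was -1.16 (-1.73 to -0.58, adjusted p = 0.00518). Its ligand CSF1 had log2 fold changes of 0.07 and 0.00 in the same clones. The summed level of the leukocyte marker list, which includes CSF1R, was between 385 and 470 normalized counts in the WT groups and between 621 and 643 in the knockouts. In the RUNX1 clones the rise of CSF1R is itself counted in this sum, so the sum is not a measure apart from CSF1R. The part of the other markers in these results was not tested.

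For the gp130 partner chains the order was the reverse. OSMR, which pairs with gp130 for oncostatin M, rose in CBFB KO (log2 fold change 0.85, SE 0.12, adjusted p = 4.63e-10), while its values in KO1 and KO2 were 0.11 and -0.12. LIFR, the receptor chain of LIF, rose in CBFB KO by 0.68 (SE 0.14), with -0.14 in KO1 and -0.55 in KO2. The responses differed between CBFB KO and KO1 for OSMR (difference 0.74, 95% interval 0.36 to 1.12, adjusted p = 0.00473) and for LIFR (0.82, 0.36 to 1.27, adjusted p = 0.0103). Against KO2 the LIFR difference was 1.22 (0.48 to 1.96, adjusted p = 0.0423). WT levels of these genes were unlike in the experiments. OSMR was 1766 normalized counts in the CBFB WT and 856 in the RUNX1 WT of the KO1 comparison. For LIFR these levels were 187 and 79.0, and for IL6ST 2215 and 1044. The part of these WT levels in the differences was not tested. IL6ST itself rose in KO1 (log2 fold change 0.65, SE 0.15) and was 0.36 in CBFB KO and 0.17 in KO2, neither past the threshold. IL6R also rose in KO1 (0.39, SE 0.10) and was -0.16 in CBFB KO and 0.11 in KO2, again not past it, whereas IL11RA was between -0.03 and 0.32 in the 3 tables and passed in none. IL15RA, which presents IL15 to neighboring cells, rose by 0.46 in CBFB KO (adjusted p = 0.0466) and was -0.33 in KO1 (adjusted p = 0.0942), a difference of 0.79 (adjusted p = 0.0173). After correction for transcript length and GC, neither its rise in CBFB KO (adjusted p = 0.160) nor this difference (0.58, adjusted p = 0.146) passed.

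Among the remaining chains, IL22RA1, which with IL20RB forms a receptor for IL24, rose in all 3 knockouts by log2 fold changes of 0.87, 0.96 and 0.98 (SE 0.17 to 0.20), each short of 2-fold. IL20RB was the most abundant receptor per kilobase in both WT groups (1042 and 1078 normalized counts) and passed in no table, though in KO1 it did after that correction (0.21, adjusted p = 0.0428). IL20RA passed in none (log2 fold changes -0.14, -0.19 and -0.02). IL2RG, the common chain for IL15, rose in KO1 (1.11, SE 0.30) and KO2 (1.67, SE 0.35) from a low level, with means of 10.6 and 12.99, and KO2 differed from CBFB KO (difference -1.46, adjusted p = 0.0262). The mean of IL2RG in the CBFB comparison was 6.33, so this difference rests in part on few reads. IL7R, which with CRLF2 binds TSLP, passed in no table (log2 fold changes 0.54, -0.17 and -0.72), and IL2RB, CSF2RA and CSF2RB had means from 0.118 to 2.998 where listed. CRLF2 and CSF3R, the partner chain for TSLP and the receptor for CSF3, were not listed in any table.

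**Figure D4:**
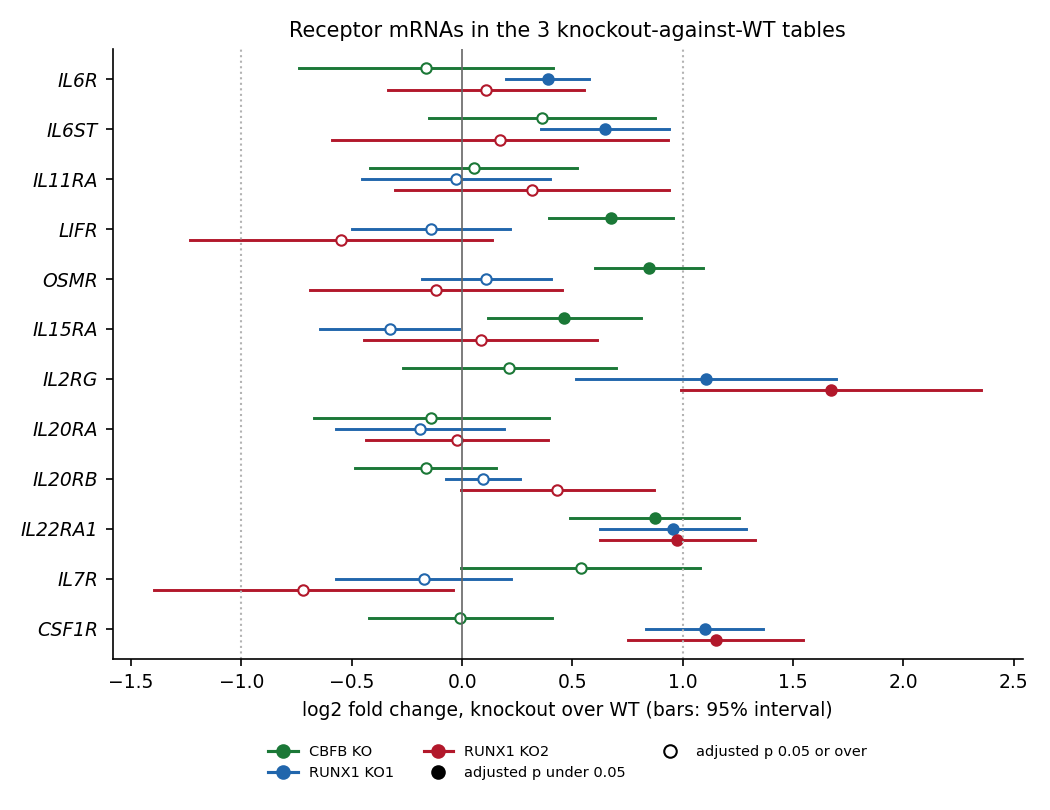
Log2 fold change of 12 receptor mRNAs tested in every table (x axis) in CBFB KO (green), RUNX1 KO1 (blue) and RUNX1 KO2 (red), with 95% intervals, filled where the adjusted p-value is under 0.05. OSMR and LIFR lie at 0.85 and 0.68 in CBFB KO and near or below 0 in the RUNX1 clones, and CSF1R lies at -0.01 in CBFB KO and at 1.10 and 1.15 in the RUNX1 clones.

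Of 12 further ligands of the same families, 1 of 4 tested was called for CBFB KO, 1 of 8 for KO1 and 2 of 8 for KO2. The 2-fold rule called 2.98%, 4.93% and 5.48% of all genes tested. On the adjusted p alone 1, 5 and 2 ligands passed, beside 19.7%, 39.5% and 14.8% of all genes. Their median log2 fold changes were -0.09, 0.51 and 0.57. EBI3, a subunit shared by IL27 and IL35, rose in KO1 (log2 fold change 2.09, SE 0.31) and in KO2 (2.58, SE 0.40), at means of 12.03 and 20.9, while its partner IL27 was not listed in any table. In CBFB KO, EBI3 had a mean of 2.84 and no adjusted p-value. IL7, a lymphocyte growth factor, rose in CBFB KO by 1.01 (SE 0.29, adjusted p = 0.00458) and in KO1 by 0.91 (SE 0.28, adjusted p = 0.00402), and was 0.83 in KO2 (SE 0.36, adjusted p = 0.113). After correction for transcript length and GC, IL7 in KO1 was 1.06 (adjusted p = 7.43e-04), past 2-fold, and was then called. CBFB KO and KO1 did not pass the test of their difference for IL7 (0.0958, 95% interval -0.69 to 0.89, adjusted p = 0.925). CTF1, which encodes cardiotrophin 1, fell in KO1 (log2 fold change -0.97, SE 0.28, adjusted p = 0.00241) and in KO2 (-1.43, SE 0.40, adjusted p = 0.00412), at means of 2.36 and 2.23, and had no adjusted p-value in CBFB KO. Summed over all libraries, CTF1 amounted to 18.9 normalized counts in the KO1 comparison and 17.8 in that of KO2, so it is resolved by few reads. Its difference of KO1 from KO2 was 0.46 (-0.50 to 1.43, adjusted p = 0.912).

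Downstream of the receptors, 0 of 9 kinases and STATs were called in any table, beside 2.98%, 4.93% and 5.48% of all genes. An adjusted p under 0.05 was found for 2, 4 and 0 in CBFB KO, KO1 and KO2, all higher, against 19.7%, 39.5% and 14.8% of all genes tested. In KO2, 3 had an unadjusted p under 0.05. The list medians were 0.25, 0.38 and 0.16 on the log2 scale. Genes named from here on that were not called were picked after their values were seen. STAT3, the main effector of gp130, rose by 0.38 in CBFB KO and by 0.38 in KO1, and was 0.16 in KO2 (SE 0.22). JAK1 and JAK2 rose in KO1 by 0.74 and 0.87, and were 0.33 and 0.25 in CBFB KO and 0.51 and 0.40 in KO2, none of these past the threshold. Of 13 feedback and target genes, 0 were called in CBFB KO, CEBPB (lower) in KO1 and PIM1 (higher) in KO2, beside 2.98%, 4.93% and 5.48% of all genes. On the adjusted p alone 6, 4 and 2 passed (19.7%, 39.5% and 14.8% of all genes), with list medians of 0.29, 0.05 and 0.18. PIM1, a kinase gene induced by STAT3 and STAT5, rose in all 3 by 0.75, 0.73 and 1.04, and the AP-1 gene JUNB by 0.69, 0.64 and 0.79 on the log2 scale. After correction for transcript length and GC, PIM1 in KO2 was 0.90 and CEBPB in KO1 was -0.96. Both then fell short of 2-fold, so neither was called. By the same correction, JUNB in KO2 was 0.53 and missed the threshold (adjusted p = 0.0774). CEBPB, which encodes a factor that binds the IL6 and CSF3 promoters, fell in CBFB KO (log2 fold change -0.82, SE 0.11) and in KO1 (-1.01, SE 0.10), and was -0.68 in KO2 (SE 0.27, adjusted p = 0.0651, or -0.94 and adjusted p = 0.00496 after this correction).

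Cytokine mRNAs are also known for AU-rich elements in the 3′ UTR, repeats of ATTTA (as DNA letters) bound by proteins that set their decay. In the longest basic protein-coding GENCODE transcript of each member, 9 of 10 held at least 1 such pentamer, as did 70.4% of 18012 annotated 3′ UTRs of at least 100 bases, and 3 (IL11, LIF and CSF2) held the longer element TTATTTATT, as did 8.61%. CSF2 had 8 pentamers in 318 bases, or 25.2 per kb, and IL6 had 6 in 429 bases, or 13.99 per kb, against a median of 1.60 per kb. IL32 had none in 373 bases. The densest windows of 30 bases are printed for the 4 members with the most pentamers per kb, with the pentamers in capitals. In GRCh38 they lie at chr5:132076076-132076105 (plus strand), chr7:22731704-22731733 (plus strand), chr17:40016979-40017008 (plus strand) and chr19:55365943-55365972 (minus strand).

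CSF2: aaaatATTTATTTATTTATTTATTTAagtt
IL6: tatttttaATTTAttaatATTTAaatatgt
CSF3: atgtATTTAtctctATTTAatATTTAtgtc
IL11: ccagatcttATTTATTTATTTAtttcagta

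The windows show the tandem repeats of CSF2 and IL11, where pentamers share their end bases, and the spaced pentamers of IL6 and CSF3. The 2 members called higher in KO1 were IL32, which had no pentamers, and CSF3, which had 7 (8.20 per kb). Whether pentamers bear on these calls was not tested. Of 7 regulators of cytokine mRNA decay, 0 were called in any table, beside 2.98%, 4.93% and 5.48% of all genes. On the adjusted p alone 0 passed for CBFB KO, 5 for KO1 and 2 for KO2, beside the same 19.7%, 39.5% and 14.8%. For CBFB KO, 1 had an unadjusted p under 0.05. The list medians were 0.06, 0.10 and -0.11 on the log2 scale. HNRNPD, whose protein AUF1 binds AU-rich elements, fell in KO1 (log2 fold change -0.73, SE 0.10) and in KO2 (-0.70, SE 0.10), and was -0.27 in CBFB KO (SE 0.13, adjusted p = 0.141). ELAVL1, which encodes the stabilizing protein HuR, had log2 fold changes of -0.38 in KO1 and -0.47 in KO2, both past the threshold, and -0.11 in CBFB KO, not past it. ZC3H12A, a nuclease that degrades IL6 mRNA, rose in KO1 by 0.65 (SE 0.15), and its values of 0.32 in CBFB KO and 0.20 in KO2 did not pass. Whether these changes bear on the cytokine levels was not tested.

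**Figure D5:**
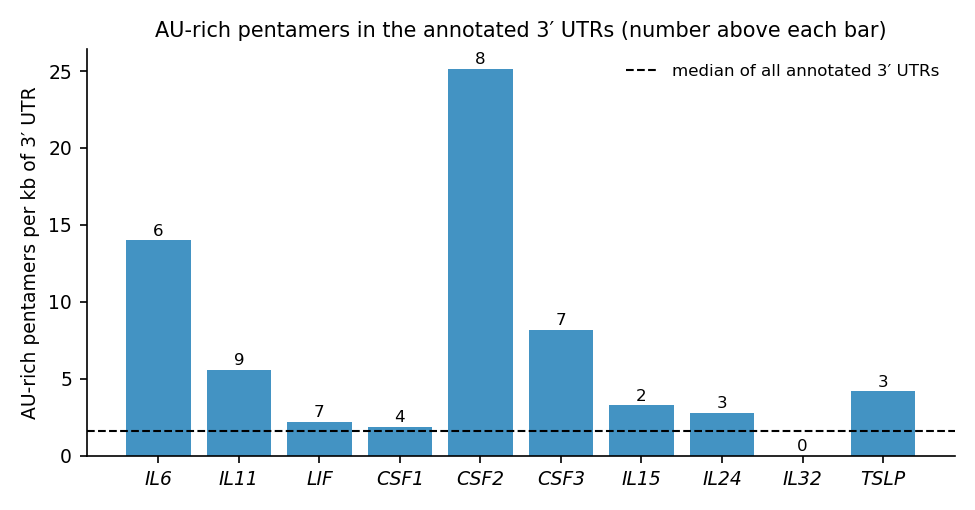
AU-rich pentamers per kb of annotated 3′ UTR (y axis) for each cytokine gene, with the number of pentamers above each bar and the median of all annotated 3′ UTRs as a dashed line (1.60 per kb). CSF2 (25.2 per kb) and IL6 (13.99 per kb) stand highest and IL32 is at 0.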

How the data were processed

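RNA-seq was compared between knockout and WT in 3 tables, with groups taken from the sample labels. The submitters' processing notes name Trimmomatic, STAR, DESeq2 and the build hg19, without versions. The labels name a TruSeq mRNA kit and the study's methods removal of ribosomal RNA. Each table holds the authors' deposited mean of normalized counts over its libraries (used as a signal), the deposited log2 fold change with its SE, the deposited test score (fold change over SE) and the deposited p-values, adjusted by Benjamini and Hochberg in DESeq2. It holds no other measurement and 0 columns of per-sample values, so no count test could be refitted and no SD given. Genes with the lowest means have no adjusted p-value and were not counted as tested, which left 14975 (CBFB KO), 16394 (KO1) and 15636 (KO2).

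From these tables, 95% intervals were taken as normal intervals, and WT and knockout levels were solved from the mean and fold change. For 8 of the 9 members in both RUNX1 tables the RUNX1 WT level agreed between tables within 11.1%, and for IL6 within 29.9%. For differences between tables, a normal test (two-sided) was taken over the combined SE, adjusted over all genes with an adjusted p-value in both (scipy 1.17.1). KO1 and KO2 share WT libraries, which makes their test conservative. The test and the trend removal were tested on simulated data. Promoters came from RefSeq (GRCh38.p14) and transcripts from GENCODE release 29. These are not the authors' build, so no measured coordinates are given. The genes named were the members and their receptors, with values from the tables that list them, and up to 4 called genes per pathway list with the largest fold changes. STAT3, JAK1, JAK2, JUNB, HNRNPD, ELAVL1 and ZC3H12A were not called in any table and were picked after their values were seen. CEBPD, also not called, was named for its difference between CBFB KO and KO1, and IL27 as the partner of EBI3. Members and lists were chosen with earlier results of these data known. The alternatives were no fold threshold, a mean of at least 10, fold changes centred on the median, and removal of the trend on transcript length and GC content.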

Additional observations from a re-analysis of the deposited data

Results flagged for a closer look

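The difference of log2 fold changes was tested for the receptor and pathway lists (normal test, two-sided, adjusted over all genes). CBFB KO was set apart from KO1 by 5 of 45 such genes, where the background share was 9.84%. Against KO2 the count was 3 of 45, with a background share of 2.9%. Receptors gave 4 of 12 and 3 of 12. The target list gave CEBPD alone (1 of 13) against KO1 and 0 of 13 against KO2. Whether these counts exceed the background was not tested. The genes that passed had these values. CBFB KO minus RUNX1 KO1 was 0.82 for LIFR, 0.74 for OSMR, 0.79 for IL15RA, 0.59 for CEBPD and -1.11 for CSF1R. CBFB KO minus RUNX1 KO2 was 1.22 for LIFR, -1.46 for IL2RG and -1.16 for CSF1R. The adjusted p-values ran from 6.56e-04 for CSF1R in KO1 to 0.0423 for LIFR in KO2. CBFB KO minus KO2 was not past the threshold for OSMR, IL15RA and CEBPD, nor was CBFB KO minus KO1 for IL2RG. In the CBFB comparison IL2RG had a mean of 6.33, a level where fold changes are shrunk toward 0. Its difference is therefore not covered by the alternative that asks for a mean of at least 10. No cytokine gene differed by this test. The experiments have separate WT libraries, and the effects of clone and experiment cannot be told apart from that of the deleted gene.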

How the results depend on the processing

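Without the fold threshold, members passing numbered 4 in KO1 and 3 in KO2. Receptor and pathway genes numbered 13 of 45, 23 of 51 and 9 of 50 tested in CBFB KO, KO1 and KO2 (1, 4 and 5 with it). The shares of all genes were 19.7%, 39.5% and 14.8% without the threshold and 2.98%, 4.93% and 5.48% with it. With the trend on transcript length and GC content removed, 2 members were called in KO2, since IL15 moved to a log2 fold change of 1.04. In KO1 IL15 moved the other way, from 0.97 to 0.87. By the same removal, called receptor and pathway genes numbered 1, 5 and 4 in CBFB KO, KO1 and KO2, with IL7 among those added in KO1. That removal reversed the sign of values past no threshold: IL11RA in CBFB KO (-0.0540), CSF1 (-0.0486), CSF2 (0.26) and TSLP (0.00257) in KO1, and CSF1 (-0.17), IL15RA (-0.10), IL20RA (0.0322) and ZC3H12A (-0.00403) in KO2. It also took IL15RA in CBFB KO (adjusted p = 0.160) and JUNB in KO2 (adjusted p = 0.0774) over 0.05, and brought IL20RB in KO1 (adjusted p = 0.0428) and CEBPB in KO2 (adjusted p = 0.00496) under it. Under it the CBFB KO minus KO1 differences of IL15RA (0.58, adjusted p = 0.146) and CEBPD (0.39, adjusted p = 0.292) missed the threshold, an alternative added for these genes after seeing the data. Centring and a mean of at least 10 changed no count of called members. A mean of at least 10 left 4 called receptor and pathway genes in KO2 in place of 5, without CTF1. The cause of these shifts was not tested. No paired analysis was possible because the tables hold no value per library, and for the same reason no replicate could be left out. IL6, CSF2 and TSLP had means under 10 normalized counts, so depth limits what can be said of them.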
